A study of Mus musculus with 18 samples.

Results

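Rag1, Rag2, Dntt, Ptcra, Sox4 and Arpp21 are genes of T cell precursors that rearrange their antigen receptor genes. They were followed in naive CD4+ T cells sorted from spleens as CD44low cells, in mice whose adaptor protein LAT had been deleted or point-mutated. Their probes were found by matching the array's transcript accessions to a RefSeq gene table. All 6 genes had a probe, out of 17178 genes named in this way, and together they had 10 of the 41174 probes. Dntt had 3 probes, Rag1 and Arpp21 had 2 each, and Rag2, Ptcra and Sox4 had 1 each.

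RAG1 and RAG2 together form the recombinase that cuts DNA at the gene segments of T cell and B cell receptors. Dntt encodes TdT, the template-independent polymerase that adds nucleotides at the cut ends before they are joined. Ptcra encodes the pre-TCR alpha chain, which pairs with a new beta chain in immature thymocytes. Sox4 is a transcription factor of lymphocyte precursors, and Arpp21 encodes a phosphoprotein with RNA-binding domains whose transcript is abundant in immature thymocytes. These genes are turned down as thymocytes mature. In T cell lines, basal signals through LAT have been reported to hold the Rag genes down, and the series title names tonic signalling, the low-level signalling of unstimulated cells, as its subject. LAT is the membrane scaffold that couples the T cell receptor (TCR) to phospholipase C-gamma 1 and the Ras pathway, and the tyrosine changed in Y136F is its binding site for phospholipase C-gamma 1.

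The 250 bases before the annotated start site are shown for Dntt, the member whose level differed between groups, and for Rag1, Rag2 and Ptcra, which share its developmental window. They are RefSeq sequences of build GRCm38.p6, written 5′ to 3′ on the strand of the gene, and capitals mark each E-box (CANNTG, the site type of E proteins, which reads the same on both strands).
Dntt, chr19:41029025-41029274, plus strand: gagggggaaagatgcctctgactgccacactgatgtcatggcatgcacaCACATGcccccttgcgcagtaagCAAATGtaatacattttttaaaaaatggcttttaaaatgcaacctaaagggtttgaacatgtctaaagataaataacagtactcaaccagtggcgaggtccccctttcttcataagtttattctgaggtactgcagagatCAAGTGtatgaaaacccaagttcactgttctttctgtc
Rag1, chr2:101649533-101649782, minus strand: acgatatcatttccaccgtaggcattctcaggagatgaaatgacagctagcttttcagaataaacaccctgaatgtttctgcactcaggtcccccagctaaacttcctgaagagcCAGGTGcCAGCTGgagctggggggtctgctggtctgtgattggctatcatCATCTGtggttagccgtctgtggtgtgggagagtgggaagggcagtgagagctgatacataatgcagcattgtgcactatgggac
Rag2, chr2:101624462-101624711, plus strand: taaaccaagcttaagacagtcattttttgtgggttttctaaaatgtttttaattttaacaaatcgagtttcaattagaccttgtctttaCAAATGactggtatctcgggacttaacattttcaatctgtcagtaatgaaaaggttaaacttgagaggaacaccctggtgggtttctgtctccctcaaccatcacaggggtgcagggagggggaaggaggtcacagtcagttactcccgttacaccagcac
Ptcra, chr17:46763713-46763962, minus strand: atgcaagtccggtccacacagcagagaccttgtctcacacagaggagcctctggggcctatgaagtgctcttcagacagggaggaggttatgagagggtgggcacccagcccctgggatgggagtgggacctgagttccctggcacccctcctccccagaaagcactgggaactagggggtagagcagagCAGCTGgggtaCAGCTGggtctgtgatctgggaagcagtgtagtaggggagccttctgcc
The window held 3 E-boxes at Dntt, 3 at Rag1, 1 at Rag2 and 2 at Ptcra. An E-box was present in 66.2% of the 32851 mouse promoter windows of this length, with a mean of 1.16 per window, so its presence does not set these promoters apart. On both strands, neither TGTTTAC, a FOXO motif (3.17% of windows), nor GCGTGGGCG, an EGR motif (0.536%), occurred in these 4 windows. TGGAAA, an NFAT core (18.6%), occurred once, at Rag1, outside the E-boxes. These are matches of letters and no evidence of binding.

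All mice were C57BL/6 and received tamoxifen, for 1 or 4 weeks, and each of the 6 groups held 3 mice with 1 array per mouse. By the sample titles, WT mice were ERCre- LAT f/- and so kept LAT from the floxed allele. LAT KO mice were ERCre+ LAT f/-, and Y136F mice were ERCre+ LAT f/m, in which the mutant allele is what remains after deletion. The series text gives all mice as Cre-positive, so whether WT mice carried Cre is not settled, and in one reading Cre and genotype cannot be told apart. The Cre is tamoxifen-inducible (ER), and the labels name no promoter or cell type that drives it and no age. All Y136F mice were female, all WT and LAT KO mice of 4 weeks were male, and the WT and LAT KO groups of 1 week each held 2 females and 1 male. At 4 weeks sex by label and the Y136F genotype thus cannot be told apart. A sex term in a model is estimated from the 1-week WT and LAT KO mice alone. It follows the labels, also where sex-linked genes went against them in a LAT KO array of 1 week.

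Of the 43379 spots of an array, between 84.2% and 97.9% lay well above background. Sex-linked genes went against the labelled sex in 2 arrays, replicate 1 of the 1-week LAT KO group and replicate 2 of the 4-week one, so results for LAT KO are also given without both arrays where they changed a statement. All LAT KO results follow the labels, and whether these 2 arrays were exchanged between the times was not tested. LAT KO replicate 3 of 1 week stood apart, with 7888 outlier spots against 187 to 952 on the other arrays and the highest percent above background. It held the left-out spots of Ptcra, Sox4 and the second probes of Rag1 and Arpp21, and the highest Rag2 level. Without it, LAT KO differed from WT at 1 week by 0.66 in Dntt, -0.34 in Rag1, -0.59 in Rag2, 0.05 in Ptcra and -0.18 in Arpp21, none called, with the signs of Rag2 and Arpp21 turned. The arrays lay on 5 slides, which mixed the groups. Levels are log2 intensity minus the 75th percentile of the array, called scaled log2, and a difference of 1 is a 2-fold change. Levels of different probes are not compared. Differences were tested with limma with Benjamini-Hochberg adjustment over all 31611 genes and unnamed sequences that passed a filter on dim probes. All 6 members passed it. Changed, rose and fell are used for an adjusted p under 0.05. The labels do not say whether the mice of a group were littermates or how many sorts were made, so p-values measure the spread between these samples.

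The markers fitted CD4+ T cells, with all 11 T cell identity genes (Cd3e, Cd4, Lck and others) well above background on every array and their summed level between 7.24 and 7.69 on the log2 scale. Lat itself read 2.75, 3.47 and 3.37 in the WT arrays of 1 week, 2.32 and 2.73 in LAT KO replicates 1 and 3, and 4.26, 4.17 and 4.32 in those of Y136F. The LAT KO replicate 2 spot was an outlier and left out, and when kept it read 3.19, inside the WT range. At 1 week LAT KO differed from WT by -0.67 ± 0.26 (SE, limma adjusted p = 1) and from Y136F by -1.72 ± 0.26 (0.0842). At 4 weeks Lat read 3.29, 3.62 and 3.85 in WT, 3.16, 2.62 and 2.34 in LAT KO and 4.43, 3.86 and 3.93 in Y136F, with LAT KO wholly below both. It fell by 1.37 ± 0.23 (SE) in LAT KO against Y136F at 4 weeks (limma adjusted p = 0.00275) and differed from WT by -0.88 ± 0.23 (0.218). Lat was thus not called against WT at either time. The position of its probe relative to the deleted part is not known here, so this level does not check the deletion, and the groups follow the labels.

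Dntt was the one member called in any comparison: in Y136F cells it was high after 1 week and fell to the lowest mean of the 6 groups after 4 weeks. The brightest Dntt probe was well above background on all 18 arrays, WT included, and above the 75th percentile of each array. In scaled log2, it read 2.54, 2.51 and 2.19 in WT at 1 week, 3.1, 3.05 and 2.64 in LAT KO and 2.98, 3.33 and 3.09 in Y136F. All arrays of both mutants were above every WT array at 1 week, which held for 1.07% of all features in LAT KO and 4.56% in Y136F. At 4 weeks it read 2.8, 2.96 and 2.86 in WT, 3.42, 2.83 and 3.11 in LAT KO and 2.09, 2.33 and 2.16 in Y136F. Y136F had moved to below every WT array and every LAT KO array of the same time, while LAT KO and WT overlapped.

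**Figure D1:**
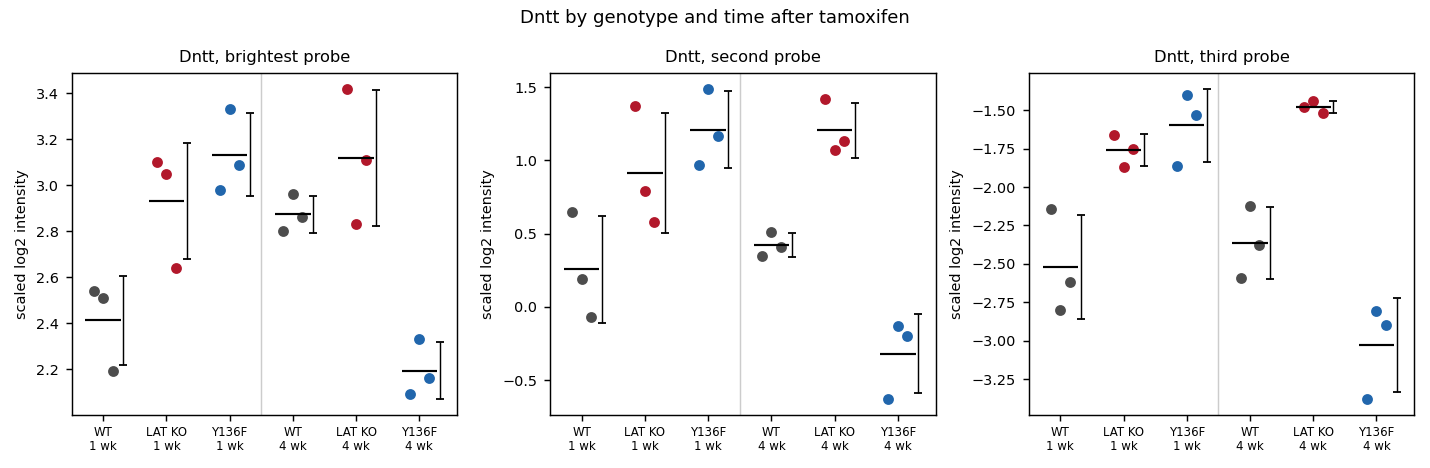
Scaled log2 intensity of the 3 Dntt probes (y axis) in each mouse (points) by group (x axis; WT grey, LAT KO red, Y136F blue), with the group mean (line) and SD (bar), n = 3. In all 3 panels the 4-week Y136F mice lie lowest among the 4-week mice, and the 1-week Y136F mice lie above the 1-week WT mice.

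In Y136F cells Dntt fell from 1 to 4 weeks by 0.94 ± 0.17 (SE, n = 3 per group) on the log2 scale, which is 1.92-fold (limma adjusted p = 0.00189). All mice of this comparison were female by label, and the values of the 2 times did not overlap. Of all features, 7.66% passed in this comparison, the highest share of the 11, and 3.45% passed as falls. In 15.5% of features the 4-week mice lay wholly below. On slide 2, the slide that held both groups, the difference was -1. The call held in all 21 alternative settings, between -1.08 and -0.84.

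At 4 weeks Dntt was 1.91-fold higher in LAT KO than in Y136F cells, a difference of 0.93 ± 0.17 (limma adjusted p = 0.0034). The share of features called higher in LAT KO here was 1.04%, and 3.37% were called in either direction. LAT KO lay wholly above Y136F in 12.6% of features. The LAT KO mice were male and the Y136F mice female by label. With sex as a term, which the 4-week mice cannot estimate, the difference was 1.31 (limma adjusted p = 0.0105). Without both LAT KO arrays of contradicted sex it was 1.07 (0.00143). Within slides 3 and 4 it was 0.95 and 1.34.

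Against WT at 4 weeks, Dntt in Y136F cells fell by 0.68 ± 0.17, or 1.6-fold (limma adjusted p = 0.029), a comparison in which 3.39% of all features were called and 0.916% as falls. Y136F lay wholly below WT in 16.9% of features. On the 3 slides that held both groups the difference was -0.63, -0.7 and -0.71. This call was close to the threshold. It ended with normexp background correction (adjusted p = 0.0851), in the deposited series matrix values (0.0521), without an intensity trend (0.0578) and without any 1 of 5 single arrays, WT replicates 2 (0.128) and 3 (0.0919) and Y136F replicates 1 (0.111), 2 (0.0508) and 3 (0.112). With sex as a term it was -1.06 (0.0462).

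The effect of Y136F on Dntt differed between the times. It was 0.72 ± 0.17 above WT at 1 week (limma adjusted p = 0.186, not called, 0.0158% of features called) and below WT at 4 weeks, and the change of the effect was -1.4 ± 0.24 (adjusted p = 0.011). That change was called for 0.517% of all features and as a fall for 0.127%. It was called in all 27 alternative settings, between -1.65 and -1.29. On slides 1, 2 and 5 the 1-week difference was 0.78, 0.82 and 0.55.

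Dntt was not called between LAT KO and WT. LAT KO differed from WT by 0.51 ± 0.17 at 1 week (limma adjusted p = 1, unadjusted p = 0.00683) and by 0.25 ± 0.17 at 4 weeks (adjusted p = 0.543, 95% interval ± 0.36). The share of features called was 0.019% and 0.0982%. The change of the LAT KO effect was -0.26 ± 0.24 (adjusted p = 0.815), with 0 of 31510 features called by limma and 1611 at an unadjusted p under 0.05. In LAT KO cells Dntt differed by 0.19 ± 0.17 between 4 weeks and 1 week, with 0 of 31548 features called by limma and 185 at an unadjusted p under 0.05, and the difference from the change in Y136F was not tested. In WT cells Dntt differed by 0.46 ± 0.17 between 4 weeks and 1 week (adjusted p = 0.198; 0 of 31548 features called, 6106 at an unadjusted p under 0.05), without overlap, as for 8.9% of features.

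Ordered by mean level, Dntt was highest in Y136F at 1 week (3.13 ± 0.18, SD, n = 3), followed by LAT KO at 4 weeks (3.12 ± 0.3), LAT KO at 1 week (2.93 ± 0.25), WT at 4 weeks (2.87 ± 0.08), WT at 1 week (2.41 ± 0.19) and Y136F at 4 weeks (2.19 ± 0.12). Neighbours in this order overlapped, except the WT groups of the 2 times. Every mouse of the lowest 2 groups lay below every mouse of the other 4 groups.

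The other 2 Dntt probes also had Y136F lowest at 4 weeks. The second probe, of the same transcript accession (NM_009345), read 0.35, 0.51 and 0.41 in WT at 4 weeks, 1.42, 1.07 and 1.13 in LAT KO and -0.63, -0.13 and -0.2 in Y136F. Here LAT KO lay above WT without overlap. The third probe, assigned to NM_001043228, read -2.59, -2.12 and -2.38 in WT, -1.48, -1.44 and -1.52 in LAT KO and -3.38, -2.81 and -2.9 in Y136F, with 3 separate groups. From 1 to 4 weeks the WT difference was 0.16 to 0.46 over the 3 probes, so the gap between the WT groups was not shared by all. Groups that lay wholly above the other were found for 9.22% of all features in the comparison of LAT KO with WT at 4 weeks.

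Across the 18 arrays the 3 Dntt probes correlated with r = 0.93, 0.86 and 0.96, a description of probes on shared arrays. Fitted probe by probe, all 3 were called in LAT KO against Y136F at 4 weeks (0.93 to 1.55, limma adjusted p = 3e-04 to 0.00312). All 3 were also called in Y136F between times (-1.53 to -0.94, 0.000351 to 0.00178) and in the change of the Y136F effect (-1.7 to -1.4, 0.0106 to 0.0157). In Y136F against WT at 4 weeks the 3 differences were -0.75 to -0.67, but 1 of 3 probes was called (0.0276 to 0.0908). In LAT KO against WT at 4 weeks they were 0.25 to 0.88, with 0 of 3 called (0.135 to 0.536).

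The recombinase genes themselves gave no call in any of the 11 comparisons. Rag1, the catalytic subunit, was well above background on all 18 arrays. In scaled log2 its brightest probe read -4.03, -3 and -2.89 in WT at 1 week, -4.13, -3.16 and -3.06 in LAT KO and -4.06, -3.87 and -4.27 in Y136F. At 4 weeks it read -3.93, -3.27 and -3.03 in WT, -3.62, -3.78 and -3.5 in LAT KO and -3.9, -3.46 and -4.34 in Y136F. The groups overlapped in every comparison, and 1 mouse per WT group was as low as the Y136F mice.

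Rag1 differed between LAT KO and WT by -0.15 ± 0.35 at 1 week (limma adjusted p = 1, 95% interval ± 0.77) and by -0.23 ± 0.35 at 4 weeks (0.727, ± 0.77). A 2-fold rise lies outside both intervals. Y136F differed from WT by -0.76 ± 0.35 at 1 week (0.822) and -0.49 ± 0.35 at 4 weeks (0.49). The second Rag1 probe gave -0.11 and -0.48 for LAT KO and -0.19 and -0.51 for Y136F at the 2 times, none called. The 2 probes correlated with r = 0.62 over the arrays, and the 1-week LAT KO replicate 3 spot of the second probe was an outlier and left out. With that spot kept, the second probe's mean was -3.65 in LAT KO and -4.04 in WT at 1 week, so its direction rests on that spot.

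Rag2, the partner subunit, was near the background of the array. Its probe was printed as 10 spots and was well above background on 11 of 18 arrays. It read -8.02, -5.52 and -5.71 in WT at 1 week, -7.09, -6.92 and -4.74 in LAT KO and -6.41, -6.66 and -8.26 in Y136F. WT replicate 1, LAT KO replicates 1 and 2 and Y136F replicates 2 and 3 were not well above background. At 4 weeks it read -5.86, -5.55 and -5.4 in WT, -6.28, -6.55 and -5.47 in LAT KO and -6.31, -5.6 and -6.54 in Y136F, with replicate 1 of both mutants not well above background. LAT KO differed from WT by 0.17 ± 0.72 at 1 week (limma adjusted p = 1) and by -0.49 ± 0.72 at 4 weeks (0.712, 95% interval ± 1.57), an interval too wide to show a 2-fold change.

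Ptcra, the pre-TCR subunit, read -2.23, -0.98 and -0.84 in WT at 1 week and -0.53 and -2.06 in LAT KO replicates 1 and 2, the spot of replicate 3 being an outlier. It read -1.68, -1.63 and -2.48 in Y136F at 1 week. At 4 weeks it read -0.92, -0.02 and -0.9 in WT, -1.07, -2.29 and -1.59 in LAT KO and -0.78, -0.87 and -0.93 in Y136F. The 4-week LAT KO mice lay below every WT and every Y136F mouse of that time. LAT KO lay wholly below Y136F in 9.61% of features, and its difference was -0.79 ± 0.42 (limma adjusted p = 0.515). The difference of LAT KO from WT was -1.04 ± 0.42 (limma adjusted p = 0.411, unadjusted p = 0.026), and 14.3% of all features had LAT KO wholly below WT there.

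Between 1 and 4 weeks Ptcra in Y136F differed by 1.07 ± 0.42 (limma adjusted p = 0.136), without overlap of the groups, as for 21.7% of all features, and Arpp21 by 0.66 ± 0.3 (0.187), also without overlap. In a model of these 6 arrays alone 3 members were called, Dntt, Ptcra and Arpp21. The share of all features called in that model is not given here. Over the alternative settings the count of all features called ranged from 586 to 5555, against 2417 in the main one. The calls of Ptcra and Arpp21 therefore rest on which arrays share the estimate of spread.

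**Figure D2:**
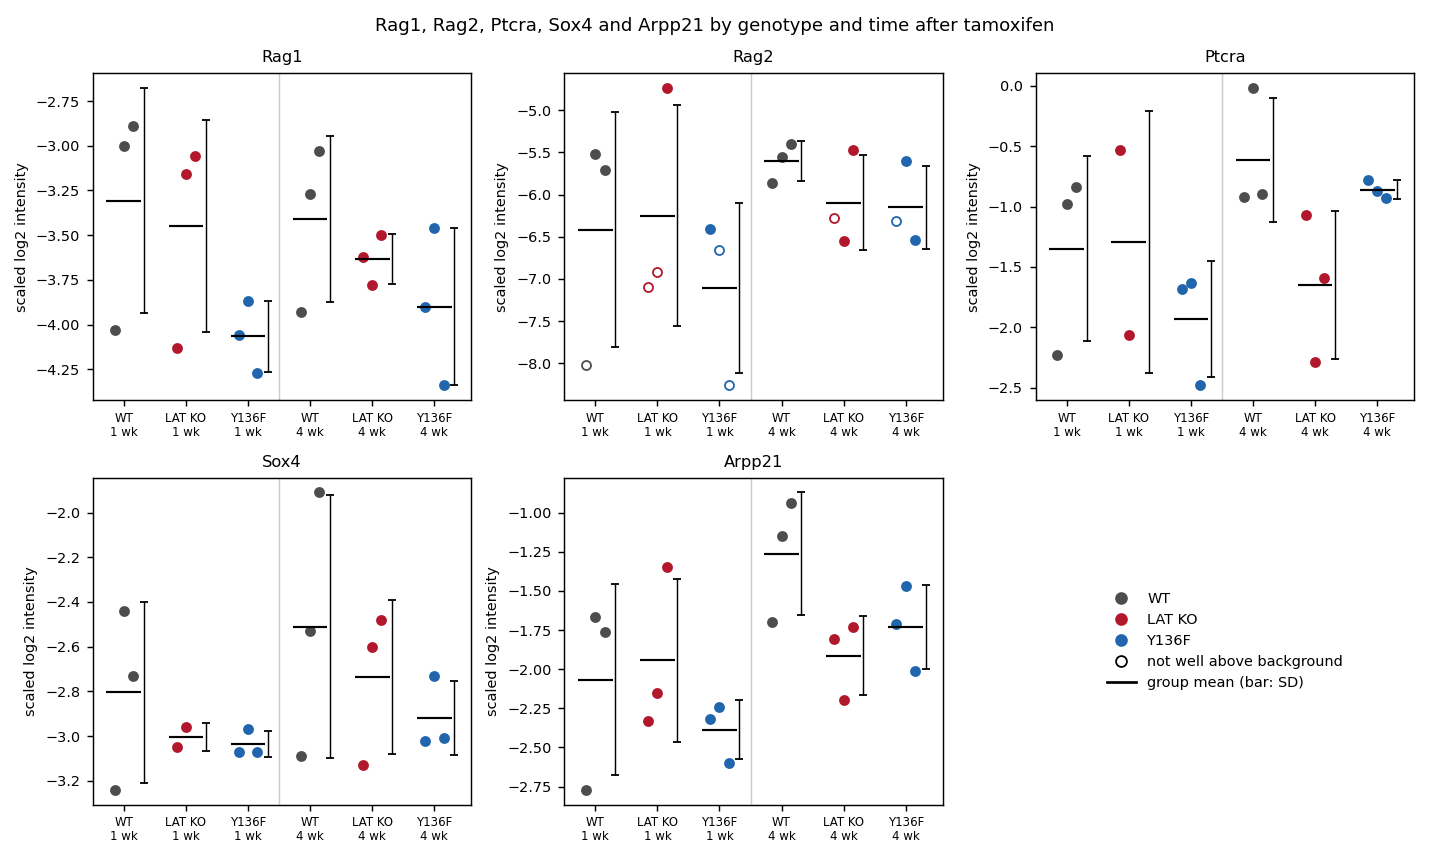
Scaled log2 intensity (y axis) of Rag1, Rag2, Ptcra, Sox4 and Arpp21 in each mouse (points) by group (x axis), with the group mean (line) and SD (bar), n = 3, or n = 2 for Ptcra and Sox4 in LAT KO at 1 week. Open points are arrays on which the probe was not well above background, which concerned Rag2 alone, and most groups overlap.

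Sox4, the precursor transcription factor, read -3.24, -2.44 and -2.73 in WT at 1 week, -3.05 and -2.96 in LAT KO replicates 1 and 2 and -3.07, -2.97 and -3.07 in Y136F. At 4 weeks it read -3.09, -2.53 and -1.91 in WT, -3.13, -2.6 and -2.48 in LAT KO and -3.02, -2.73 and -3.01 in Y136F. Every pair of groups compared overlapped. Sox4 differed between LAT KO and WT by -0.2 ± 0.31 at 1 week (limma adjusted p = 1) and -0.22 ± 0.28 at 4 weeks (0.672). With the outlier spot of LAT KO replicate 3 kept, the 1-week difference was 0.39, so its direction rests on that spot.

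Arpp21 read -2.77, -1.67 and -1.76 in WT at 1 week, -2.33, -2.15 and -1.35 in LAT KO and -2.32, -2.24 and -2.6 in Y136F. At 4 weeks it read -1.7, -1.15 and -0.94 in WT, -1.81, -2.2 and -1.73 in LAT KO and -1.71, -1.47 and -2.01 in Y136F. The 4-week LAT KO mice lay below all WT mice of that time, by a margin smaller than the spread within either group. Of all features, 14.3% had LAT KO wholly below WT there. The difference was -0.65 ± 0.3 (limma adjusted p = 0.447). A second Arpp21 probe, of another transcript accession (NM_033264), was well above background on 4 of 18 arrays, so that transcript is not described.

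Taken by comparison, 0 of the 5 genes other than Dntt were called in any of the 11, with limma adjusted p of 0.136 or more. In LAT KO against WT at 4 weeks all 5 had a negative difference, between -1.04 and -0.22, where the median of all features was -0.17 and 3460 features had an unadjusted p under 0.05. All 5 were negative in Y136F against WT as well, from -0.76 to -0.23 at 1 week (median of all features -0.12) and from -0.55 to -0.25 at 4 weeks (median -0.19). All 5 were positive in Y136F at 4 weeks against 1 week, from 0.12 to 1.07 (median 0.13). The signs of these 5 genes thus ran the same way as the median of all features in these comparisons, which share control arrays.

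**Figure D3:**
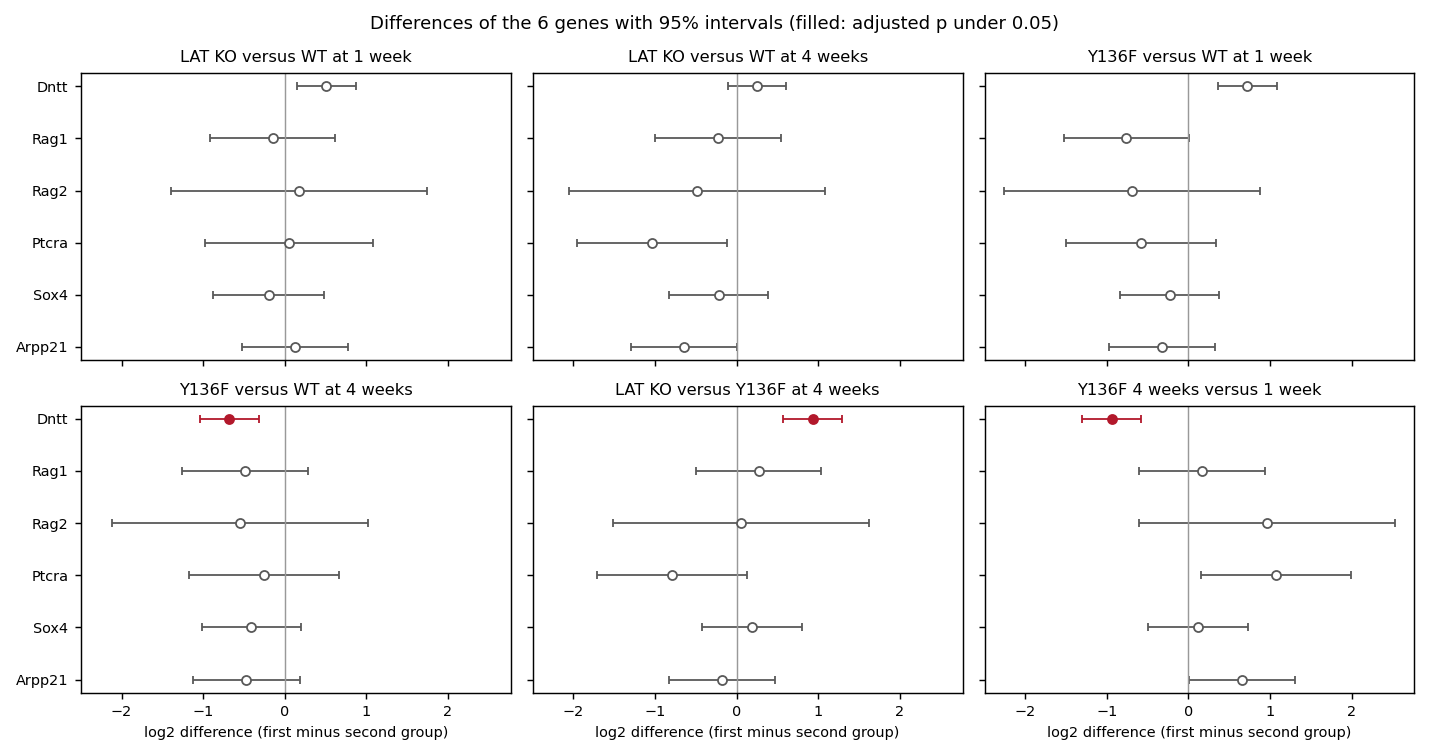
Difference of each of the 6 genes (log2, x axis) with its 95% interval (bars) in 6 comparisons, the first group named minus the second, n = 3 mice per group, or 2 for Ptcra and Sox4 in LAT KO at 1 week. Filled red points have an adjusted p under 0.05, which is Dntt in 3 of the panels, at -0.68, 0.93 and -0.94.

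The levels of these 5 genes moved with the signal of the arrays, as those of many features did. Over the arrays, Rag2 correlated with the percent of spots well above background with r = 0.96 (Spearman's rho = 0.88, n = 18). Arpp21 gave r = 0.82 (rho = 0.80), Ptcra 0.70 (0.63, n = 17), Rag1 0.63 (0.60) and Sox4 0.61 (0.64, n = 17). Dntt gave r = -0.21 (rho = -0.39). In permutation tests (100000 resamples, two-sided, adjusted over the 6 relations) p was 6e-05 for Rag2, 9e-05 for Arpp21, 0.0025 for Ptcra, 0.006 for Rag1, 0.0122 for Sox4 and 0.407 for Dntt. The value for Rag2 is the smallest that these permutations can give. These tests shuffled arrays across groups and slides and took r = 0 as the reference, whereas the median feature had r = 0.33. They thus do not show whether a gene followed array signal more than other features.

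For Spearman's rho the adjusted permutation p was 0.00018 for Rag2, 0.00027 for Arpp21, 0.012 for Ptcra and Sox4, 0.0125 for Rag1 and 0.114 for Dntt. Without the 2 arrays farthest from the median, r was 0.92 for Rag2, 0.70 for Arpp21, 0.51 for Ptcra, 0.56 for Rag1 and Sox4 and -0.32 for Dntt. With slide means removed, r was 0.89 for Rag2, 0.78 for Arpp21, 0.53 for Rag1, 0.50 for Ptcra, 0.48 for Sox4 and -0.26 for Dntt. Without LAT KO replicate 3 of 1 week it was 0.95 for Rag2, 0.81 for Arpp21, 0.59 for Rag1 and -0.19 for Dntt; Ptcra and Sox4 have no value on that array. Among 31251 features the median r was 0.33, and 0.0032% had an r as high as Rag2, 6% as Arpp21, 21.9% as Ptcra, 30.4% as Rag1, 32.3% as Sox4 and 75.2% as Dntt. An r as high as that of Ptcra, Rag1 or Sox4 was thus common among all features. The lowest percents, 84.2 and 86, belonged to WT replicate 1 and Y136F replicate 3 of 1 week, both on slide 5, where Rag2 read -8.02 and -8.26. In a model with this percent as a term, chosen after seeing the data, Rag2 differed between LAT KO and WT by -0.01 at 1 week and 0.04 at 4 weeks. Because Rag2 followed the percent with r = 0.96, such small differences were largely set in advance and decide nothing. The part of array signal in the differences of these 5 genes was thus not tested.

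**Figure D4:**
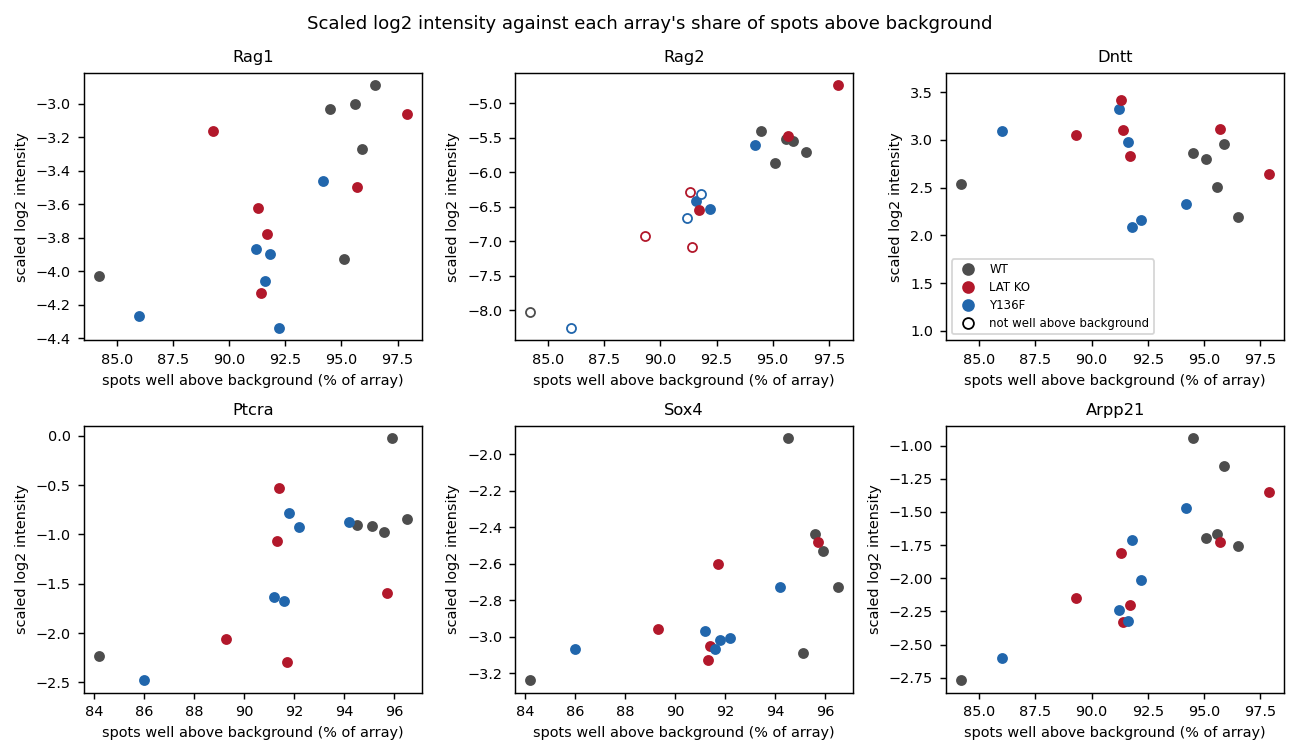
Scaled log2 intensity of each gene (y axis) against the percent of spots well above background on the same array (x axis), 1 point per mouse, coloured by genotype, open where the probe was not well above background. Rag2 rises along the whole range from 84.2% to 97.9% (r = 0.96), and Dntt does not (r = -0.21).

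Between members, correlations ranged widely. Arpp21 and Rag2 correlated with r = 0.88 over 18 arrays, Arpp21 and Sox4 with 0.74, Rag1 and Rag2 with 0.70 and Rag1 and Sox4 with 0.70. Rag1 and Ptcra gave 0.30 and Ptcra and Sox4 0.27, both over 17 arrays. Dntt gave -0.27 to -0.05 with the other 5. The points share arrays and groups, and after group means were removed Arpp21 and Rag2 were at 0.90, Rag1 and Ptcra at 0.22, Ptcra and Sox4 at 0.09 and Dntt and Ptcra at 0.25. Without LAT KO replicate 3 of 1 week, Rag1 and Rag2 gave 0.66 and Arpp21 and Rag2 0.88.

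The genes most like each member over the arrays were found by Pearson's r among 17051 named genes. For Dntt they included Fbxl4, an F-box protein gene (r = 0.859), and Ly6c1, a surface protein of lymphocyte subsets (0.825). Group means of Ly6c1 for WT, LAT KO and Y136F were 2.1, 2.83 and 3.13 at 1 week and 2.02, 2.86 and 1.23 at 4 weeks. Both genes were chosen for their likeness over these same arrays, so their levels are a description.

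For the other members the nearest genes were Fabp7, Chst1 and Foxa2 for Arpp21 (r = 0.976 to 0.98), Klk15, Grin1 and Actl6b for Sox4 (0.954 to 0.965) and Lce1l, Sval2 and Olfr906 for Ptcra (0.898 to 0.954). They were Spint4, Cdrt4 and Pate14 for Rag2 (0.964 to 0.97) and Olfr678, Sfrp1 and Slc51a for Rag1 (0.885 to 0.897). Most of these are known for other tissues, such as brain, skin, olfactory epithelium and testis.

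The end joining machinery, with which the recombinase works, had called genes in both directions in Y136F cells. Of 15 measured genes (of 16 listed), 0 were called in LAT KO against WT at either time, where 0.019% and 0.0982% of all features were. In Y136F against WT at 4 weeks 1 rose, Hmgb2, a DNA-bending cofactor of RAG cutting that is also abundant in dividing cells (1.39 ± 0.26, limma adjusted p = 0.00429), and the median was 0.03, in a comparison with 3.39% of all features called. With sex as a term 0 of the 15 were called there, and 85 of all features in place of 1069. In Y136F at 4 weeks against 1 week, where 7.66% of all features were called, 2 rose, Hmgb2 (0.93 ± 0.26, 0.034) and the histone gene H2ax (0.79 ± 0.17, 0.00785). In that comparison 3 fell, the ligase partner Xrcc4 (-0.78 ± 0.17, 0.0076), the break-sensing kinase Atm (-0.76 ± 0.17, 0.0101) and the Ku subunit Xrcc5 (-0.62 ± 0.17, 0.0284). Hmgb2 differed by -1.52 ± 0.26 between LAT KO and Y136F at 4 weeks (0.00205), the 1 gene of 15 called there against 3.37% of all features. With sex as a term none of the 15 was called between LAT KO and Y136F, and the 5 calls between the times remained.

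Transcription factors that act on these genes in precursors included called genes in Y136F cells of 4 weeks. In LAT KO against WT 0 of 26 were called at either time, where 0.019% and 0.0982% of all features were. Gata3, a regulator of T cell development and Th2 cells, rose by 1.59 ± 0.2 in Y136F against WT at 4 weeks (limma adjusted p = 0.000203), and Id2, an inhibitor of E proteins, rose by 1.88 ± 0.31 (0.00203). These were the 2 of 26 called, beside 3.39% of all features, and the list's median was 0.07. With sex as a term Gata3 was called there and Id2 was not. Against LAT KO at 4 weeks both were again higher in Y136F (differences of LAT KO from Y136F -1.18 ± 0.2 and -1.7 ± 0.31). There Foxo1, a factor known to activate Rag genes and Il7r, was higher in LAT KO by 0.64 ± 0.14 (0.0149), with Lef1 at 0.92 ± 0.2 (0.0133) and Foxp1 at 0.77 ± 0.19 (0.0339). These 5 of 26 stood beside 3.37% of all features, and with sex as a term 0 of 26 were called between LAT KO and Y136F at 4 weeks. From 1 to 4 weeks in Y136F, Gata3 and Id2 rose and Lef1, Foxp1 and Foxo1 fell (-0.51 ± 0.14, 0.0344 for Foxo1), 5 of 26 beside 7.66% of all features, and the same 5 were called with sex as a term. Myb, a precursor factor, was the lowest in p for LAT KO against WT and was not called (-0.98 ± 0.24 at 1 week, adjusted p = 0.504).

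Other markers of immature thymocytes were called between the times in Y136F cells. Of 14 measured genes 0 were called in LAT KO against WT at 1 week (median 0, all features -0.05, 0.019% of them called) or at 4 weeks (median -0.06, all features -0.17, 0.0982% called). In Y136F against WT at 4 weeks 0 of 14 were called and 3.39% of all features. In Y136F at 4 weeks against 1 week, where 7.66% of all features were called, 2 of 14 rose, Endou (2.1 ± 0.43, limma adjusted p = 0.00655) and Cd24a, the heat-stable antigen of immature and some other lymphocytes (2.29 ± 0.52, 0.0108). Dntt fell in that comparison. The summed level of the 14 genes was 4.91 to 4.98 in Y136F at 4 weeks, 5.2 to 5.39 in LAT KO and 5.24 to 5.3 in WT of the same time. At 1 week it was 4.89 to 5.21 in Y136F, 4.98 to 5.35 in LAT KO and 5.07 to 5.29 in WT, so the Y136F ranges of the times overlapped.

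Beside Dntt, the genes of T cell state moved as well. Of the 9 basal TCR targets 5 fell in LAT KO against WT at 1 week and 5 at 4 weeks, where 0.019% and 0.0982% of all features were called. Nr4a1 fell by 2.02 ± 0.15 (limma adjusted p = 5.93e-06) and 1.7 ± 0.15 (8.82e-05). Dntt was not called in those comparisons. In Y136F against WT 3 of 9 fell at 1 week, beside 0.0158% of all features called. At 4 weeks 1 rose (Cd5, 0.65 ± 0.16, 0.0313) and 1 fell (Irf4, -1.05 ± 0.23, 0.0155), beside 3.39% of all features called. Neither was called with sex as a term. That term kept the 5 and 5 calls in LAT KO against WT and 2 of the 3 in Y136F at 1 week. In Y136F at 4 weeks against 1 week 5 of 9 rose, beside 7.66% of all features called. The same 5 were called with sex as a term. Between LAT KO and Y136F at 4 weeks 6 of 9 were lower in LAT KO, beside 3.37% of all features called. With sex as a term 4 of these were called. Dntt was called in both of these comparisons, in the opposite direction, and a link between them was not tested. The summed level of the 9 genes was 2.67 to 3.03 in Y136F at 1 week and 3.31 to 3.67 at 4 weeks, against 3.39 to 3.75 in WT of 4 weeks and 2.35 to 2.55 in LAT KO.

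Naive T cell genes fell in Y136F at 4 weeks together with Dntt. Of 12, 5 fell against WT, among them Dapl1 (-2.93 ± 0.23, limma adjusted p = 1.95e-06) and the homing receptor gene Ccr7 (-1.36 ± 0.16, 0.00011), and 8 fell against 1 week. Their summed level was 6.76 to 6.95 in Y136F at 4 weeks and 7.04 to 7.54 in the other groups. Effector and dividing cell genes rose in 11 of 14 against WT and in 12 of 14 against 1 week, such as Gzma (6.64 ± 0.61, 1.03e-05) and Mki67 (2.37 ± 0.3, 0.000252). Of all features, 3.39% were called against WT and 7.66% against 1 week, with 0.916% and 3.45% as falls. In these sorted bulk samples, fewer Dntt-positive cells and less Dntt RNA per cell cannot be told apart. With sex as a term 4 of 12 naive genes, Dapl1 and Ccr7 among them, and 3 of 14 effector and dividing cell genes, Gzma among them, were called against WT at 4 weeks. Against 1 week, where all Y136F mice were female, the counts were 8 and 13. Over all features the same term gave 85 calls against WT and 2786 against 1 week. The part of the shift from naive to effector genes in the fall of Dntt was not tested.

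**Figure D5:**
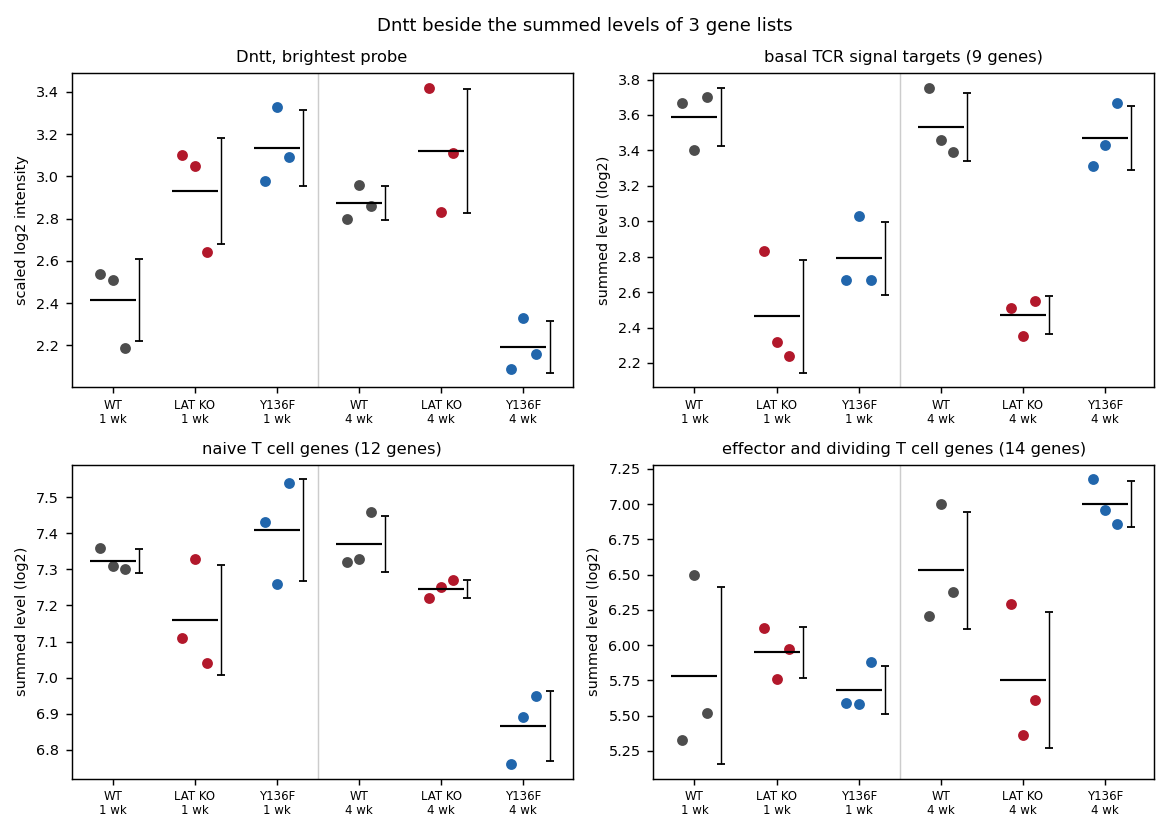
Scaled log2 intensity of Dntt and summed log2 level of 3 gene lists (y axes) in each mouse (points) by group (x axis), with the group mean (line) and SD (bar), n = 3. Y136F at 4 weeks has the lowest naive gene levels, 6.76 to 6.95, and the lowest mean of Dntt, 2.19. Basal TCR targets are below WT of the same time in LAT KO at 1 and 4 weeks and in Y136F at 1 week. Mean Dntt in these groups is 2.93, 3.12 and 3.13, against 2.41 and 2.87 in WT at 1 and 4 weeks.

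Markers of other cells that could carry Dntt or Rag transcripts, and of other spleen cells, were also measured. The 5 measured pro-B and pre-B cell markers, members left out, had a summed level of 1.5 to 1.79 in Y136F at 4 weeks, 1.77 to 1.92 in LAT KO and 1.82 to 2.17 in WT of that time. At 1 week it was 1.51 to 1.54 in Y136F, 1.57 to 2.55 in LAT KO and 1.55 to 1.96 in WT. The 12 B cell markers gave 3.04 to 3.69 in Y136F, 2.32 to 3.59 in LAT KO and 2.97 to 3.29 in WT at 4 weeks. At 1 week they gave 2.76 to 3.34 in Y136F and 2.3 to 2.6 in WT, which did not overlap, and 2.42 to 3.92 in LAT KO, highest in replicate 1. Bank1, a B cell adaptor gene, was the 1 of 12 whose Y136F effect changed between the times (-1.24 ± 0.26, limma adjusted p = 0.044), and it fell from 1 to 4 weeks (-0.92 ± 0.19, 0.00545). Of all features, 0.517% and 7.66% were called in these comparisons. The 8 plasmacytoid dendritic cell markers gave 2.79 to 3.18 in Y136F, 2.95 to 3.28 in LAT KO and 3.03 to 3.17 in WT at 4 weeks. Of the 5 pro-B and pre-B markers outside the member list, Bst1 rose in Y136F from 1 to 4 weeks (1.93 ± 0.53, limma adjusted p = 0.0343), beside 7.66% of all features called.

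NK cell markers (5 measured) were 1.33 to 1.68 in Y136F at 4 weeks and at most 1.06 in every other group. Myeloid markers (10) were 1.63 to 2.64 in Y136F and 1.72 to 2.2 in WT at 4 weeks, erythroid markers (5) 2.31 to 3.2 and 2.16 to 3.16, and Cd8a -0.96 to -0.79 and -1.21 to -0.99. Single markers rose in the comparisons in which Dntt fell. The neutrophil gene S100a8 rose in Y136F against WT at 4 weeks (2.99 ± 0.76, limma adjusted p = 0.0369), as did Eomes, a factor of NK and effector T cells (2.62 ± 0.38, 0.000836). These were 1 of 10 myeloid and 1 of 5 NK markers, beside 3.39% of all features called, and with sex as a term neither was called. In Y136F from 1 to 4 weeks 4 of 10 myeloid markers rose, S100a8 (4.29 ± 0.76, 0.00197), S100a9 (2.33 ± 0.48, 0.00657), Adgre1 (1.28 ± 0.35, 0.0309) and Csf1r (1.44 ± 0.42, 0.0462). The NK genes Eomes (2.46 ± 0.38, 0.000758) and Klrb1c (1.04 ± 0.23, 0.00968) rose as well, 2 of 5. In that comparison 7.66% of all features were called. Between LAT KO and Y136F at 4 weeks 2 of 10 myeloid and 2 of 5 NK markers were lower in LAT KO, beside 3.37% of all features called. With sex as a term no myeloid or NK marker was called between LAT KO and Y136F at 4 weeks. The 4 myeloid and 2 NK calls in Y136F from 1 to 4 weeks remained.

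The markers well above background on an array numbered at least 4 of 5 for pro-B and pre-B cells, 4 of 5 for NK cells, 11 of 12 for B cells and 9 of 10 for myeloid cells. The part of all these cells in the levels of the 6 genes was not tested.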

How the data were processed

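RNA of sorted naive CD4+ T cells from 18 mice was labelled with Cy3 and hybridised to single-colour Agilent arrays, 1 mouse per array. Per the file headers, the authors scanned spots with Feature Extraction 10.5.1.1 from Agilent. The deposited signal used here is a linear intensity after background correction. Per the submitters' processing notes, Feature Extraction 10.5 and limma were used. The deposited series matrix holds log2 values and served as an alternative. Aligners do not apply, and coordinates of the array's own build are not given.

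From the intensity, log2 values minus each array's 75th percentile over 43379 non-control spots were computed. Outlier spots were left out, which left Lat, Ptcra, Sox4 and the second probes of Rag1 and Arpp21 with 2 arrays in LAT KO at 1 week. RefSeq names (GRCm38.p6) were found by accession for 24844 of 41174 probes. The brightest probe stood for a gene in the tests across genes, if at least 3 arrays showed it well above background.

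limma 3.58.1 (R 4.3.3, statmod 1.5.0) fitted 1 mean per group over all 18 arrays with an intensity trend, 12 residual degrees of freedom and 5.44 prior ones (median), two-sided, at an adjusted p of 0.05. The 95% intervals use the residual degrees of freedom. Replicate numbers were not used as pairs. The script was tested on simulated data. Correlations with array signal were computed with scipy 1.17.1 and figures drawn with matplotlib 3.10.9. The number of arrays limits the precision.

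Members and gene lists were chosen with earlier results of these data known. Named are the 6 members with every probe, Lat, list members called over all genes (up to 6 per list and comparison, or the smallest p), and the 3 genes nearest to each member, of which 1 is not reported here. Alternatives were normexp (offset 50), quantile normalization, the series matrix, probe filters and rules, slide, sex and replicate terms, outlier spots kept, female mice only and arrays left out. Probe and protein sequences are not shown.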

Additional observations from a re-analysis of the deposited data

Results flagged for a closer look

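The effect of Y136F on Dntt differed between the times in a test of that change, at -1.4 on the log2 scale (SE 0.24, limma adjusted p = 0.011). All 3 mice of 1 week lay above every WT mouse and all 3 mice of 4 weeks lay below every WT mouse of their time. Such separations held for 4.56% and 16.9% of all features.

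At 4 weeks the 2 LAT mutants differed from each other in Dntt by 0.93 (SE 0.17, limma adjusted p = 0.0034), with each of the 3 LAT KO mice above each of the 3 Y136F mice. LAT KO lay wholly above Y136F in 12.6% of all features. The first result was called in all 27 alternative settings run and the other in all 21. By label the Y136F mice were female and the WT and LAT KO mice of 4 weeks male. None of these settings can tell sex and genotype apart at 4 weeks.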

How the results depend on the processing

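Of the 11 counts of called members, 9 stayed the same in every setting run (20 to 28 settings each). In Y136F against WT at 4 weeks the count of 1 (Dntt) became 0 with normexp background correction, series matrix values and no intensity trend, and it ranged from 0 to 1 when single arrays were left out. In Y136F at 4 weeks against 1 week it became 3 with only the arrays compared. Counts over all features ranged more widely, and sex as a term gave the lows of 85, 167 and 50: 85 to 1393 (1069 in the main setting) for Y136F and WT at 4 weeks, 167 to 1411 (1063) for LAT KO and Y136F at 4 weeks, 586 to 5555 (2417) for Y136F between times, 50 to 485 (163) for the change of the Y136F effect, 5 to 46 (31) for LAT KO and WT at 4 weeks, 0 to 10 (6) at 1 week and 0 to 13 (5) for Y136F and WT at 1 week. For LAT KO and Y136F at 1 week (0) it reached 1, for WT between times (0) 3, for LAT KO between times (0) 25 and for how the LAT KO effect changed (0) 2.

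Dntt, read by its brightest probe, kept its sign in every setting. Signs turned for other members, none called. In LAT KO against WT at 1 week, Rag1 was 0.19 and Ptcra -0.71 without both arrays of contradicted sex. Rag2 was -0.03 and Arpp21 -0.03 in series matrix values, with Ptcra at -0.07 and Sox4 at 0.26. Rag2 was -0.23 and Arpp21 -0.02 in female mice only, and Sox4 0.39 with outlier spots kept. Slide as a fixed term gave Rag2 -0.13 and Ptcra -0.4. Without the 2 arrays with the fewest spots above background, Rag2 was -0.63, Ptcra -0.38 and Arpp21 -0.23. In LAT KO against WT at 4 weeks quantile normalization gave Rag1 0.01 and Rag2 0.06, and series matrix values Rag2 0.05. In Y136F against WT at 4 weeks sex as a term gave Rag1 0.11, Rag2 1.11, Ptcra 0.52 and Arpp21 0.21. With the percent of spots above background as a term Rag2 was -0.01 and 0.04 in LAT KO at the 2 times and 0.03 in Y136F at 4 weeks, with Ptcra at 0.04. The last 3 kinds of setting (slide as a fixed term, percent above background, without the 2 arrays) were chosen after seeing the data. The cause was not tested.
Leaving out 1 array gave, in LAT KO against WT at 1 week, -0.51 to 0.19 for Rag1, -0.63 to 0.62 for Rag2, -0.71 to 0.82 for Ptcra and -0.23 to 0.32 for Arpp21. In LAT KO against WT at 4 weeks it gave -0.51 to 0.08 for Sox4, and in Y136F against WT at 4 weeks -0.4 to 0.05 for Ptcra.

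Female mice alone could give no value for WT or LAT KO at 4 weeks, where all mice were male by label. With the replicate number as a block, Dntt was -0.68 (limma adjusted p = 0.0314) in Y136F against WT at 4 weeks and no call of a member changed; same-numbered arrays deviated together with r from -0.62 to 0.55, so the numbers share only a name.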
